A study of Mus musculus with 6 samples.

Results

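H3K4me3, the trimethylation of lysine on histone H3 that accumulates around the start sites of active and poised genes, was examined at the genes of the Janus kinases and of the Stat transcription factors in a mouse T cell progenitor line and a mouse B cell progenitor line. The 9 genes were Jak1, Jak2, Jak3, Stat2, Stat3, Stat4, Stat5a, Stat5b and Stat6, which are 3 kinase genes and 6 Stat genes among 21951 annotated protein-coding genes, and the rule that defines them is membership of the families, which uses no measured value. Other genes of these families were not analysed here. Scid.adh.2C2 is a pro-T line from a tumour of CB17-Prkdc scid mice, which lack a working DNA repair kinase needed to join antigen receptor genes, and 230-238 is a progenitor B (pre-B) line transformed with Abelson virus. Both were untreated and grown in RPMI1640 with serum. Each line gave 2 H3K4me3 ChIP libraries, made with the same Millipore antibody, and 1 input library. Each group is thus 1 tumour or transformed line, so that lineage, transformation and clone cannot be told apart.

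Janus kinases are bound to the inner part of cytokine receptors. When a cytokine brings receptor chains together, the kinases phosphorylate each other, the receptor and then Stat proteins, which pair, enter the nucleus and bind DNA. Jak1 and Jak3 act with receptors that share the common gamma chain, such as the interleukin-7 receptor on which mouse T and B cell progenitors depend, and Stat5a and Stat5b carry much of that signal. The Abelson virus kinase is known to keep Stat proteins phosphorylated in transformed B cell progenitors. H3K4me3 reports on the state of the gene's start, not on the amount of its RNA or the activity of its protein.

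For each line 1 peak list was deposited, in which both replicates were combined. The lists hold 15513 peaks for Scid.adh.2C2 and 19604 for 230-238. They hold no value per replicate and no read count, so that the depth is unknown, no spread can be given, and no difference between the lines was tested. Promoter windows reached 2500 bp to either side of every annotated start site (TSS), and a gene with any peak in its windows is called marked. The fold enrichment is the authors' ratio of ChIP signal to background at the peak. It ran from 2.08 to 56.6 in Scid.adh.2C2 and from 2.14 to 42.1 in 230-238, and it is therefore compared between genes of the same list only, as a rank among marked genes, where rank 1 is the highest. The marker genes of the labelled cell types were checked first. All 8 T progenitor markers were marked in Scid.adh.2C2 and 2 of them in 230-238 (Cd3d and Tcf7), whereas all 8 B progenitor markers were marked in 230-238 and 1 of them in Scid.adh.2C2 (Vpreb1). None of 5 myeloid and none of 3 NK markers was marked in either line, and of 4 erythroid markers 2 (Klf1 and Epor) were marked in Scid.adh.2C2 and 1 (Klf1) in 230-238.

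The promoters of this family differ widely in their content of the dinucleotide CpG, and 5 that are described below are printed here. They are the 250 bases before the start site in the RefSeq promoter table (GRCm38.p6), 5′ to 3′ on the strand of the gene, with each CpG in capitals. The Stat4 sequences are those of its separate starts, at chr1:51986898-51987147 and chr1:52007990-52008239 on the plus strand, of which only the later was marked, and only in 230-238. The Jak3 sequence, chr8:71676133-71676382 on the plus strand, is that of the gene whose rank differed most between the lines. Jak2, chr19:29251553-29251802 on the plus strand, and the main Stat5b promoter, chr11:100850582-100850831 on the minus strand, are the most CpG-rich of the family.
Stat4 upstream start: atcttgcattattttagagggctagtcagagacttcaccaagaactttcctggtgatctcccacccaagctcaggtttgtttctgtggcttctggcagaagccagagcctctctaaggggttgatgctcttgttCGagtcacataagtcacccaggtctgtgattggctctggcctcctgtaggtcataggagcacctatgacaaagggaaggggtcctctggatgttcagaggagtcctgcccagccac
Stat4 downstream start: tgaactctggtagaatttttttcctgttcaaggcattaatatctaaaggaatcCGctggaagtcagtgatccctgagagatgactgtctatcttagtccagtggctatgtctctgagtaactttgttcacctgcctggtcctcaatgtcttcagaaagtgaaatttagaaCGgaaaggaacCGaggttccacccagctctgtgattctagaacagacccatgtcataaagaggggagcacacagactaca
Jak3: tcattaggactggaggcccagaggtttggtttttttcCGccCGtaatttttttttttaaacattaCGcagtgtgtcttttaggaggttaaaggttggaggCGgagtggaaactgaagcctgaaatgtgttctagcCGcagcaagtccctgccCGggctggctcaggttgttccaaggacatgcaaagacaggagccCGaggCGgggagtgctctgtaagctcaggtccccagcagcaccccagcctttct
Jak2: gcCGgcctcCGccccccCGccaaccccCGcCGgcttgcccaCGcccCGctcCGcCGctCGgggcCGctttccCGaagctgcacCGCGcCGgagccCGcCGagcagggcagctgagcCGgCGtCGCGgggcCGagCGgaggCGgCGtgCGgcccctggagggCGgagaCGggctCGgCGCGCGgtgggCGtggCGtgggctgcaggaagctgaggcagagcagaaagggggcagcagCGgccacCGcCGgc
Stat5b: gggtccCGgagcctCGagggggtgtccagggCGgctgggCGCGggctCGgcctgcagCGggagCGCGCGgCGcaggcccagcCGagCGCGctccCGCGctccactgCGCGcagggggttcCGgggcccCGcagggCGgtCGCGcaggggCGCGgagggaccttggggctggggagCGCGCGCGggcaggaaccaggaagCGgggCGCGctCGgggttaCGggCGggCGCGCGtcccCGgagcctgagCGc
The 250 bases hold 1 CpG at the upstream and 3 at the downstream Stat4 start, 8 at Jak3, 37 at Jak2 and 40 at Stat5b.

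All 9 genes were marked in 230-238 and 8 of 9 in Scid.adh.2C2. Of all protein-coding genes, 48.2% were marked in 230-238 and 45.5% in Scid.adh.2C2. Marked in both lines were 8 of the 9, against 42.2% of all genes. The exception was Stat4, which was marked in 230-238 only. That state was found at 5.96% of all genes, and the converse, marked in Scid.adh.2C2 only, at 3.28% of all genes and at 0 of the 9. Each of the 17 strongest promoter peaks, 8 in Scid.adh.2C2 and 9 in 230-238, had the highest IDR score of 1000, which is given to peaks whose ranks agree best between replicates, but so had the strongest peaks of 97.2% and 97.9% of all marked genes.

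**Figure D1:**
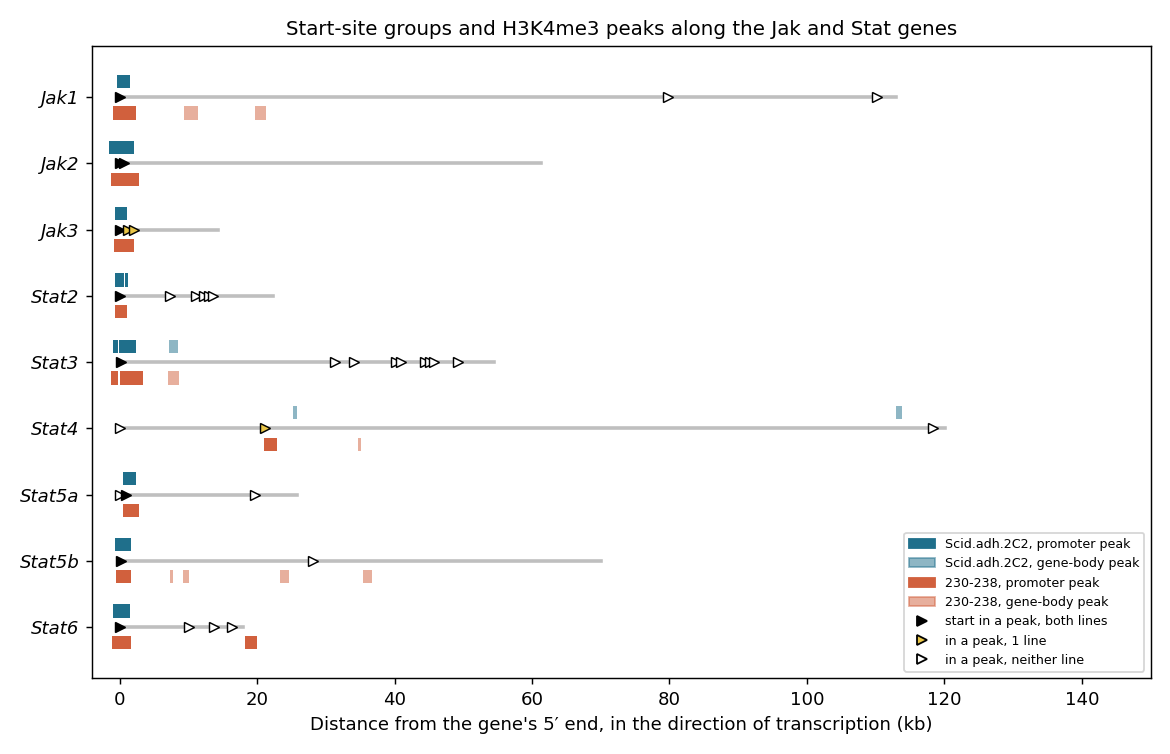
Start-site groups and H3K4me3 peaks along the 9 genes, with the distance in kb from the 5′ end of each gene in the direction of transcription. Bars above each gene are peaks of Scid.adh.2C2 and bars below are peaks of 230-238, pale where they lie in the gene body outside all promoter windows, and short bars are drawn at least 0.5 kb wide. Filled triangles are start-site groups inside a peak in both lines, yellow ones in 1 line and open ones in neither. No bar stands at the upstream start of Stat4, and those of Stat5a begin 155 bp and 151 bp after its first start-site group.

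By strength, the members stood near the middle of the marked genes in the pro-T line and more of them above it in the pre-B line. The strongest promoter peaks of the members had a median fold enrichment of 26.4 in Scid.adh.2C2 (15.0 to 36.7), where the median marked gene had 27.1, and 4 of 8 members ranked above the middle of the marked genes. In 230-238 the median was 25.3 (15.8 to 28.6), against 21.7 for all marked genes, and 6 of 9 ranked above the middle. The highest 25% of marked genes held 1 member in Scid.adh.2C2, Stat3, and 4 members in 230-238, Jak3, Stat3, Stat5a and Stat6. The median width of the members' strongest peaks was 2137.5 bp in Scid.adh.2C2, against 2134 bp for all marked genes, and 2718 bp in 230-238, against 2351 bp.

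Jak1, the kinase of the gamma chain, interferon and gp130 receptors, lies on chr4:101152367-101265282 on the minus strand. Its peak reached 23.2-fold in Scid.adh.2C2 (rank 6845 of 9980 marked genes) and 23.4-fold in 230-238 (rank 4030 of 10570). The peak was 1855 bp wide in Scid.adh.2C2 (chr4:101263736-101265590) and 3356 bp wide in 230-238 (chr4:101262835-101266190). The pre-B peak thus extended further on both sides of the start and ranked 2170 by width, against 6467 in the pro-T line. A rise in width rank this large was found at 432 of the 9261 genes marked in both lines (4.66%). Rises as large as that of Jak1 by covered length were found at 4.59% of these genes. By fold the share was 18.8%, and by −log10 q it was 29.3%.

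Jak2, the kinase used by the erythropoietin, growth hormone and interleukin-3 type receptors, lies on chr19:29251828-29313080 on the plus strand. It had the broadest promoter peak of the family in both lines, 3702 bp in Scid.adh.2C2 (rank 694 by width) and 4024 bp in 230-238 (rank 1165). It reached 28.8-fold in Scid.adh.2C2 (rank 4134) and 21.6 in 230-238 (rank 5350), both near the middle of the marked genes. The peaks covered nearly the same stretch, chr19:29250242-29253943 and chr19:29250561-29254584. In Scid.adh.2C2 the summit lay at −639 bp from the nearest TSS, at 29251828, upstream of it. In 230-238 it lay 809 bp downstream of a different nearest TSS, at 29252441. Jak2 was the only member whose summit lay upstream in any line.

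Jak3, whose product binds the common gamma chain and is known mainly from blood cells, lies on chr8:71676296-71690575 on the plus strand. Its peak was 15.0-fold in Scid.adh.2C2, rank 9176 of 9980, the lowest fold of the marked members there. In 230-238 it was 28.6-fold, rank 1063 of 10570, the highest of the 9. As a percentage of the marked genes the rank moved from 91.9% to 10.1%, and a rise at least as large was found at 60 of 9261 genes (0.648%). By the −log10 q of the peak (83.0 in the pro-T and 172 in the pre-B list) the rank moved from 84.7% to 8.19%, and 65 genes (0.702%) rose as far. By width and by covered length, rises as large as that of Jak3 were more frequent, at 6.77% and 7.31% of genes. The peak was 1788 bp wide in Scid.adh.2C2 (chr8:71675585-71677372) and 2901 bp in 230-238 (chr8:71675459-71678359). Its upstream edge was alike in the lines, while its downstream edge lay 820 bp from the TSS in Scid.adh.2C2 and 1807 bp from it in 230-238, where the peak overlapped the second exon. Later start sites of Jak3, at 71677551 and 71678335, were therefore inside the peak in 230-238 and lay 179 bp and 963 bp outside it in Scid.adh.2C2. Neighbouring promoters also differed. At Unc13a, upstream, peaks of 12.6-fold and 10.4-fold in Scid.adh.2C2 ranked 10756 and 11723 of 15513 peaks. The 230-238 peak over both had 26.3-fold, rank 1848 of 19604. Peaks further upstream ranked 14381, 10913 and 10491 in Scid.adh.2C2, and their partners 13075, 13985 and 15316 in 230-238. Downstream, a 24.1-fold peak at B3gnt3 was in the 230-238 list only. Whether the rise at Jak3 is local was not tested.

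**Figure D2:**
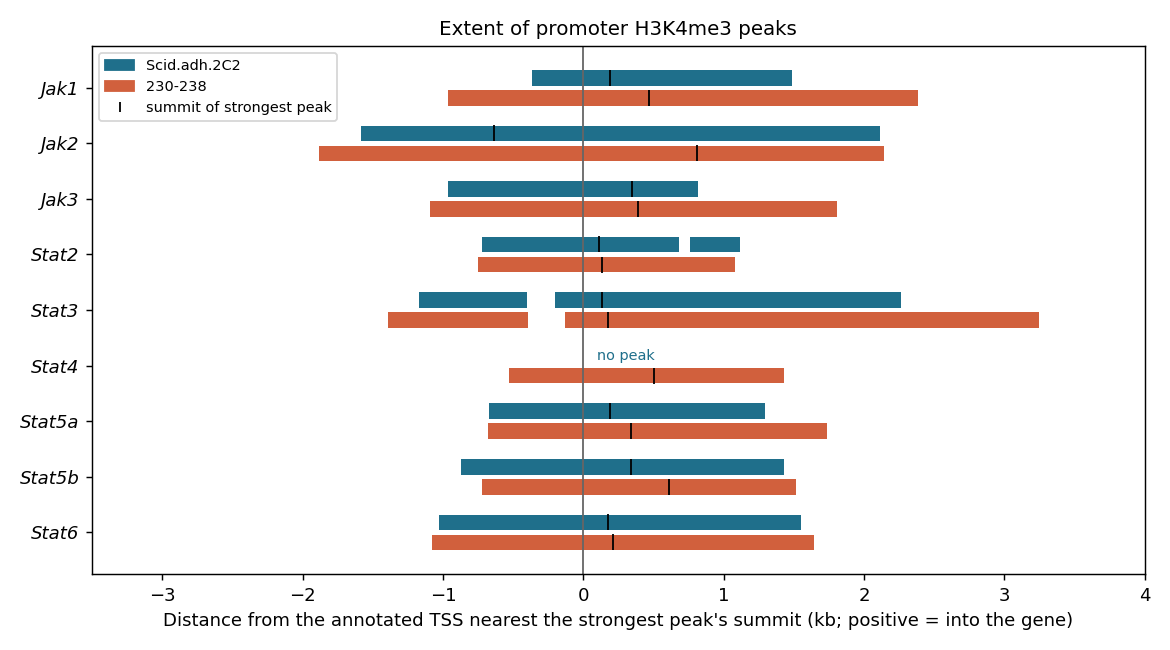
Promoter peaks of each gene as bars, in kb from the annotated TSS nearest to the summit of the strongest peak in that line, with positive distances into the gene, the summit as a black tick, and a more distant second peak of Stat6 in 230-238 left out. For Jak2 that TSS differed between the lines (29251828 and 29252441), so its bars have different origins. The peaks of Jak1 (1855 bp and 3356 bp) and Jak3 (1788 bp and 2901 bp) were longer in 230-238. Stat3 had a gap just upstream of its plotted TSS in both lines, which in 230-238 held the outermost TSS.

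Stat2, which with Irf9 carries type I interferon signals, lies on chr10:128270559-128292849 on the plus strand. It had the narrowest promoter peak of the members in both lines, with 1408 bp in Scid.adh.2C2 and 1828 bp in 230-238, yet its fold was 30.5 (rank 3281) and 25.3 (rank 2758). The peak also lay in the promoter window of the neighbouring gene Apof, so that it cannot be assigned to Stat2 alone. In Scid.adh.2C2 a weak second peak of 361 bp and 4.45-fold followed after a gap of 72 bp, and the pre-B peak covered most of that place in 1 piece.

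Stat3, the factor of interleukin-6 type and interleukin-10 signals, lies on chr11:100885098-100939540 on the minus strand. It had the highest fold of the family in Scid.adh.2C2, 36.7 (rank 921), and 27.1 in 230-238 (rank 1737), and was the only member in the highest 25% in both lines. Its peaks were 2469 bp and 3379 bp wide. In both lines a separate peak stood upstream of the start, of 772 bp and 15.7-fold in Scid.adh.2C2 and of 1004 bp and 13.2-fold in 230-238, with gaps of 198 bp and 258 bp. The outermost TSS, at 100939540, fell inside the strong peak in Scid.adh.2C2 and inside the gap in 230-238, where the other TSSs of the same group were in the peak.

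Stat3 also had the only gene-body peak that was found in both lines, in the first intron. It was 1306 bp and 20.4-fold in Scid.adh.2C2 (chr11:100931112-100932417) and 1628 bp and 17.3-fold in 230-238 (chr11:100930866-100932493), with summits 7787 bp and 7764 bp downstream of the nearest TSS of the gene, at 100939380. It overlapped no annotated exon, and no annotated TSS of any gene lay within 2500 bp of it. The 200 bases around the summit in Scid.adh.2C2, chr11:100931493-100931692 on the minus strand as the gene is read, are given because the position recurred in both lists. They hold 5 CpG, in capitals, and the whole peak holds 18.
Stat3 intronic summit: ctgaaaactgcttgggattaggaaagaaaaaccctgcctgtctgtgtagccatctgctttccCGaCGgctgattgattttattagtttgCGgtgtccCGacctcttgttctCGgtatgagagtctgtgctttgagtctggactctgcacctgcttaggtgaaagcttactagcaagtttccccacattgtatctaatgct

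Stat4, the factor of interleukin-12 and of type 1 helper and NK cell responses, lies on chr1:51987148-52107189 on the plus strand. GENCODE gives it starts at 3 places. In 230-238 a peak of 1960 bp and 15.8-fold (chr1:52008097-52010056, rank 8692) covered the second place, at 52008243 to 52008626, and its summit lay 507 bp downstream of the nearest TSS. That start is the one of the transcript named Stat4-201, whose first exon lies in the peak. The upstream start, at 51987148, was 20949 bp from the nearest peak in that line and 25197 bp from it in Scid.adh.2C2. In Scid.adh.2C2 the nearest peak to the second place began 3719 bp downstream of it, in the second intron (chr1:52012345-52012979, 635 bp, 9.06-fold). A further peak of 831 bp and 7.60-fold covered exon 17 of Stat4-201 (chr1:52100122-52100952), 4497 bp from the third, non-coding start. Neither lay within a promoter window of 2500 bp, and with a window of 5000 bp Stat4 counted as marked in Scid.adh.2C2 too. Its mark in 230-238 was the weakest of the 9 by fold, and the pro-T list had peaks of lower fold inside the gene but none at a start.

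Stat5a and Stat5b, the closely related factors of interleukin-7, interleukin-2 and prolactin signals, lie head to head on chromosome 11, with 8627 bp between their outermost starts, and the ends of Stat5a and Stat3 overlap by 72 bp. Stat5a (chr11:100859351-100885169, plus strand) had a peak of 24.1-fold and 1970 bp in Scid.adh.2C2 (rank 6444) and of 27.3-fold and 2414 bp in 230-238 (rank 1638). Stat5b (chr11:100780731-100850724, minus strand) had 28.6-fold and 2305 bp in Scid.adh.2C2 (rank 4215) and 20.3-fold and 2238 bp in 230-238 (rank 6296). The order of these neighbours by fold was thus Stat5b before Stat5a in the pro-T line and Stat5a before Stat5b in the pre-B line. The same order held by −log10 q in 230-238, 151 for Stat5a and 105 for Stat5b, but in Scid.adh.2C2 both had 107. Stat5b was the only member whose strongest peak was narrower in 230-238.

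At Stat5a the peak did not include the first start-site group, at 100859351 to 100859656, which lay 155 bp outside it in Scid.adh.2C2 and 151 bp outside it in 230-238. It covered the second group, at 100860345 to 100860485, in both lines, and exons of the transcript Stat5a-201 that follow its first. Stat5b has an internal start at 100822528, with a RefSeq promoter of its own. It was not in a peak in either line, and the nearest peak lay 26578 bp away in Scid.adh.2C2 and 3549 bp away in 230-238. The second promoters of the pair, 1 in a peak in both lines and 1 in a peak in neither, shared the longest matching stretch of any pair of Stat5a and Stat5b promoters, 49 identical bases of 55 (89.1%). These are chr11:100860418-100860472 on the plus strand and chr11:100822573-100822627 on the minus strand, with identical bases in capitals.
Stat5a second promoter, −66 to −12 from the TSS: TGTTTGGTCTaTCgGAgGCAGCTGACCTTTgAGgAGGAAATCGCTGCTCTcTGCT
Stat5b second promoter, −57 to −3 from the TSS: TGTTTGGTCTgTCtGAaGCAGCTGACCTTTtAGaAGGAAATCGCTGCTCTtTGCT

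Stat6, the factor of interleukin-4 and interleukin-13 signals, lies on chr10:127642986-127660957 on the plus strand. Its peak had nearly the same extent in the lines, 2579 bp in Scid.adh.2C2 (chr10:127641972-127644550) and 2718 bp in 230-238 (chr10:127641927-127644644). Its fold was 19.7 in Scid.adh.2C2 (rank 8145) and 27.1 in 230-238 (rank 1723), and a rise in rank this large was found at 302 of 9261 genes (3.26%). By −log10 q the difference was smaller, from 51.9% to 16.3% of the marked genes, and 9.86% of genes rose as far. By covered length 23.9% of genes rose as far as Stat6. By width its rank was lower in 230-238, at 36.7% against 29.3% in Scid.adh.2C2. In 230-238 a further peak of 1701 bp and 14.9-fold (chr10:127661276-127662976) lay beyond the 3′ end of Stat6. It entered the promoter window through a non-coding start at 127659400, 1876 bp away, and shares that window with Gm16229.

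**Figure D3:**
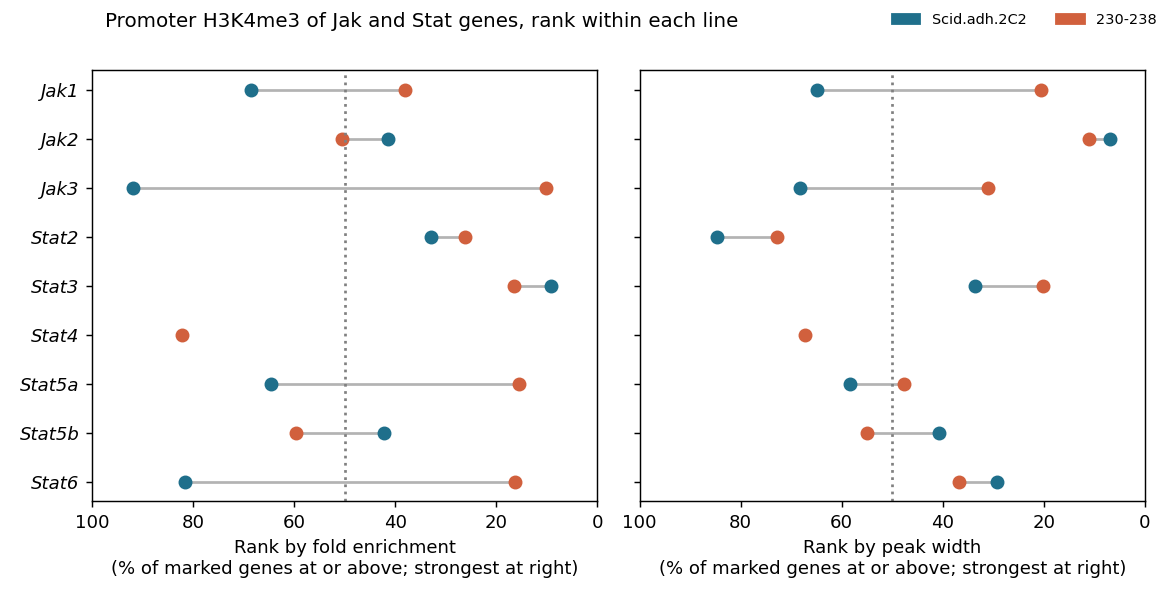
Rank of each gene's strongest promoter peak by fold enrichment (left) and by width (right), as a percentage of the marked protein-coding genes of the same line, with the strongest at the right, a dotted line at 50% and a grey line joining the lines of 1 gene. By fold, Jak3 stood at 91.9% in Scid.adh.2C2 and at 10.1% in 230-238, Stat6 at 81.6% and 16.3%, and Stat4 has a point in 230-238 only.

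Set side by side, 5 of the 8 members marked in both lines had a higher rank by fold in 230-238 (Jak1, Jak3, Stat2, Stat5a and Stat6) and 3 had a lower one (Jak2, Stat3 and Stat5b). Of all genes marked in both, 50.5% had a higher rank in 230-238. By −log10 q the members with a higher rank were 7 of 8, against 50.8% of genes, by width 5 of 8, against 46.5%, and by covered length of the promoter window 4 of 8, against 44.1%. The count of members that ranked higher in 230-238 therefore varied with the measure. Peaks were wider in 230-238 at 7 of 8 members, but also at 70.1% of all genes. The median ratio of widths was 1.26 for the members and 1.10 for all genes, with 1.81 at Jak1, 1.62 at Jak3 and 0.971 at Stat5b. Summits lay downstream of the nearest TSS in 7 of 8 members in Scid.adh.2C2 and in 9 of 9 in 230-238, and at 68.8% and 68.7% of all marked genes. The peak reached further into the gene than upstream in 6 of 8 and 9 of 9 members, and at 68.4% and 70.5% of all marked genes.

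The 9 genes have annotated start sites at 35 places when TSSs within 500 bp of each other are joined, and each gene has several. Of the 35, 9 were inside a peak in Scid.adh.2C2 and 12 in 230-238. Of all start-site groups of protein-coding genes, 21.5% and 23.4% were. The most upstream group was in a peak in 7 of 9 genes in both lines, all but Stat4 and Stat5a. Of the other 26 groups, 2 were in a peak in Scid.adh.2C2, the second ones of Jak2 and Stat5a, and 5 in 230-238, those and the second of Stat4 and the second and the third of Jak3. The groups without a peak in either line included the internal starts of Jak1, Stat2, Stat3 and Stat6.

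Peaks inside the gene but outside every promoter window were found in 2 of 9 members in Scid.adh.2C2 and 4 of 9 in 230-238. Of all protein-coding genes, 4.72% and 7.71% had such a peak. The members are long genes, with a median of 54443 bp against 17403 bp for all. Among marked genes within the members' range of length, 14280 to 120042 bp, the shares were 6.62% and 13.7%. Stat4 was not marked in Scid.adh.2C2, so that of the 2 members there only Stat3 can be set beside that share. The peaks were 3 in Scid.adh.2C2, 1 in Stat3 and 2 in Stat4, and 8 in 230-238. Of these 8, 2 lay in the first intron of Jak1, at 10.3-fold and 9.78-fold, 4 in the first intron of Stat5b, from 5.53-fold to 12.7-fold, 1 in Stat3, and 1 in the third intron of Stat4, at 6.91-fold. Only the Stat3 peak had a partner in the other line.

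RefSeq promoters of 300 bases, 250 before and 50 after the start, matched all 9 genes with 12 sequences. Their CpG counts ran from 2 at the upstream Stat4 start to 50 at Stat5b, and the median of all 32851 promoters was 7. Promoters with under 10 CpG had their TSS in a peak in 6.13% of cases in Scid.adh.2C2 and 7.69% in 230-238, and those with 10 or more in 59.7% and 60.6%. The 6 member promoters with 10 or more CpG, at Jak1, Jak2, Stat2, Stat3, Stat5a and Stat5b, were in a peak in 6 of 6 cases in Scid.adh.2C2 and 5 of 6 in 230-238, where the RefSeq TSS of Stat3 fell in the gap described above. Of the 6 with under 10, those of Jak3 (9 CpG) and Stat6 (8) were in a peak in both lines, that of the downstream Stat4 start (4) in 230-238 only, and the others in neither. Of these promoters with under 10 CpG, 2 of 6 and 3 of 6 were in a peak. Those of Jak3 and Stat6 lie above the median of 7. Jak3 and Stat6 had the largest rises in rank by fold. The next largest was at Stat5a, whose promoter in a peak has 27 CpG. Whether CpG content goes with differences between the lines was not tested.

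**Figure D4:**
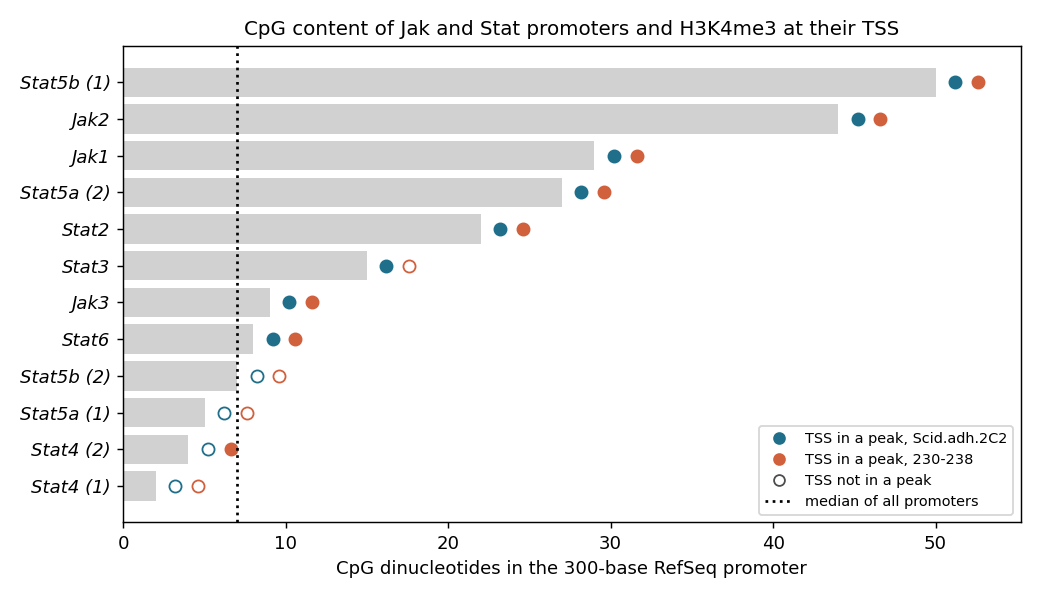
CpG dinucleotides in each 300-base RefSeq promoter as grey bars, with numbers in brackets for the first and second promoter of a gene, and filled circles where the TSS was in a peak. The dotted line is the median of all promoters, 7. Filled circles stand beside all promoters with 15 or more CpG, apart from Stat3 in 230-238, and beside 2 or 3 of the 6 with under 10.

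Short motifs were searched on both strands of the 12 promoters, and no matches overlapped each other. The Stat motif TTCNNNGAA (GAS) was found in 0 of 12, and in 8.30% of all promoters. The core of the interferon response element, AAANNGAAA, was found in 3 of 12 and in 10.6% of all. These were Stat2, starting at −222 from the TSS, the downstream Stat4 start, at −96, where the printed sequence reads aaagtgaaa, and the internal Stat5b start, at −61. The GC box GGGCGG was in 7 of 12 and 35.7% of all, CCAAT in 4 of 12 and 37.4%, and the Runx motif TGTGGT in 3 of 12 and 16.8%. TATAAA (13.6% of all) and the Ets motif CCGGAAG (8.86%) were in 0 of 12. These are matches of letters, and binding was not measured.

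The other genes of the pathway were described by 5 lists. A peak marks every gene whose window it reaches, so that the mark of a list gene may belong to a neighbouring gene. Of 37 cytokine receptor genes, 15 were marked in Scid.adh.2C2 and 19 in 230-238 (40.5% and 51.4%), near the share of all genes (45.5% and 48.2%). Marked in both were 11 of the 37, against 42.2% of all genes. Marked in 1 line only were 4 in Scid.adh.2C2 and 8 in 230-238, against 3.28% and 5.96% of all genes. Il2ra, the interleukin-2 receptor alpha chain of DN2 and DN3 thymocytes, was marked in Scid.adh.2C2 only, at 21.8-fold, as were Il12rb2 (16.0), Il9r (14.7) and 1 more. Il3ra (28.0), Csf2ra (22.9) and Il4ra (19.9), receptors for interleukin-3, GM-CSF and interleukin-4, were among 8 marked in 230-238 only. With a window of 5000 bp Il9r was marked in both lines.

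Receptor genes marked in both lines included Il2rg, the common gamma chain that Jak3 binds, at 23.2-fold in Scid.adh.2C2 and 28.3-fold in 230-238. Il15ra (37.7-fold) and Ifnar2 (32.0-fold) had the highest values of the shared receptors in Scid.adh.2C2, and Il2rg and Crlf2 (22.2-fold), the TSLP receptor, in 230-238. The peak of Il15ra in Scid.adh.2C2 lacked the highest IDR score. Il7r, named after its values were seen, was marked in both lines at 20.1-fold and 13.9-fold. Both chains of the interleukin-7 receptor, which signals through Jak1 and Jak3, were thus marked in both lines.

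Of 26 ligand genes, 6 were marked in Scid.adh.2C2 and 7 in 230-238 (23.1% and 26.9%), below the share of all genes (45.5% and 48.2%). Tslp (15.2-fold), Il13 (11.3) and Il4 (10.2) had a mark in the pro-T line alone, and Il12a (27.3), Lif (22.8) and Il15 (9.68) in 230-238 only, with 1 more. With peaks of at least 10-fold, or with equal numbers of peaks in the lists, 2 of these 4 were left, Il12a and Lif, and with a window of 1000 bp Il13 was marked in neither line. Epo and Osm had the highest values among the 3 marked in both.

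The inhibitors and partners were marked almost throughout, as the kinases and Stat genes were. Of 19 inhibitors 17 were marked in Scid.adh.2C2 (89.5%) and 18 in 230-238 (94.7%), against 45.5% and 48.2% of all genes. Marked in both were 16 of the 19, against 42.2% of all genes. Socs5 was marked in Scid.adh.2C2 only (15.4-fold), and Socs1 (22.3) and Cish (17.4), feedback inhibitors that are themselves Stat targets, in 230-238 only. Where the summit had to lie in the window, Socs1 was marked in neither line. Pias2 (37.0-fold) and Pias4 (36.6-fold) were highest among the shared inhibitors in Scid.adh.2C2, and Pias1 (28.8) and Ptpn6 (28.2), the phosphatase SHP-1, in 230-238. With only the most upstream TSS, Pias1 was marked in neither line and Socs6 in Scid.adh.2C2 only. Of 13 adaptors and partners, 12 were marked (92.3%), the same genes in both lines, against 42.2% of all genes marked in both. Pik3r1 (42.0-fold and 29.3-fold) and Stam (36.0-fold and 27.4-fold) were the highest of the adaptors and partners.

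Of 26 genes known as Stat targets, 22 were marked in Scid.adh.2C2 (84.6%) and 21 in 230-238 (80.8%), against 45.5% and 48.2% of all genes. Marked in both were 19 of the 26, against 42.2% of all genes, among them the kinase gene Pim1 (34.1-fold and 30.5-fold). Nfil3 (33.7-fold) followed in Scid.adh.2C2 and Ccnd3 (28.9-fold) in 230-238. Gata3 (39.9), Tbx21 (22.3), which encodes the T-bet factor of type 1 cells, and Mx1 (13.3) had a marked promoter in the pro-T line alone, and Myc (31.9) and Ccnd2 (20.4), the cyclin D2 gene, in 230-238 only.

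**Figure D5:**
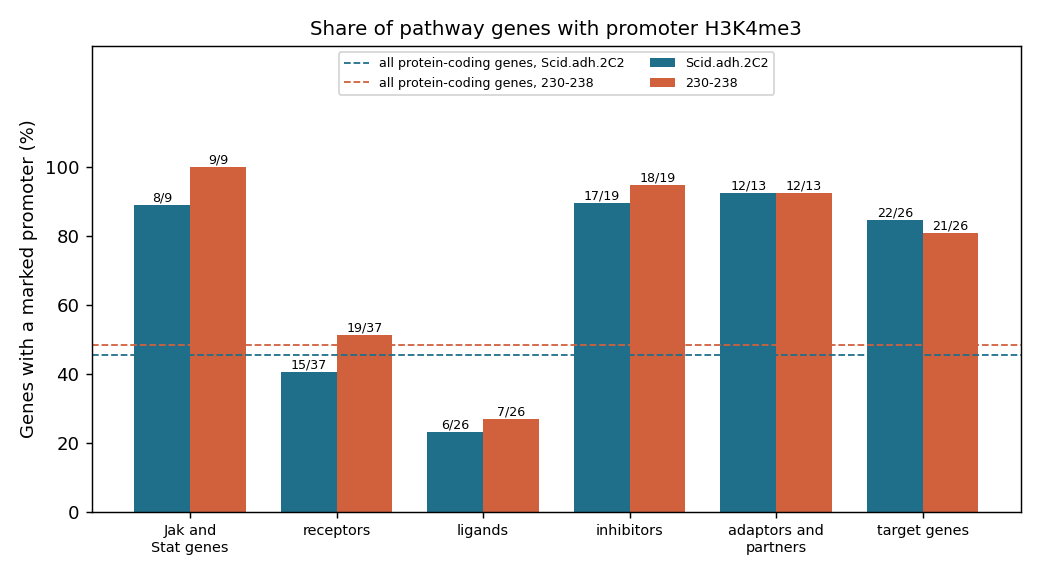
Percentage of genes with a marked promoter in each line for the 9 Jak and Stat genes and the 5 pathway lists, with the numbers above the bars and dashed lines for all protein-coding genes. The Jak and Stat genes (8 and 9 of 9), inhibitors, partners and targets stand above the dashed lines, ligands (6 and 7 of 26) below them and receptors near them.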

How the data were processed

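H3K4me3 ChIP-seq was deposited for 2 mouse lines, each with 2 ChIP libraries and 1 input, grouped by their cell line labels (sample titles spell the pro-T line Scid.ahd.2C2). The authors trimmed reads with Trim Galore 0.6.7, mapped them with Bowtie2 2.4.4 to mm10 (GRCm38), called peaks with MACS2 2.2.7.1 at a q-value of 0.05 against input and kept those reproducible between replicates at an IDR of 0.05. The IDR score, the fold ratio and the −log10 p-values and q-values are the authors' deposited values and were used unchanged, within a list. Combined lists show only peaks that passed these thresholds, so a weak mark can appear as none.

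TSSs came from GENCODE M21 and promoter sequences from RefSeq (GRCm38.p6). A promoter was 2500 bp either side of any TSS and was marked by 1 bp of overlap. Counts, values and ranks were computed in Python 3.11.15 with pandas 2.3.3, with no test. Marking was tested on simulated data. The family and the lists were chosen with earlier results of these data known. All 9 members were named, and from each list and line up to 3 genes of highest fold marked in that line only and the 2 highest marked in both. Columns without a sample numbered 0. The alternatives were windows of 1000 and 5000 bp, stricter peak thresholds, equal numbers of peaks, the summit, other TSS sets and other rank measures.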

Additional observations from a re-analysis of the deposited data

How the results depend on the processing

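No paired analysis was possible because each deposited list combines both replicates, and for the same reason no replicate could be left out. Of 112 recomputed counts of marked genes, 110 stayed within 1.5 times their value. The exceptions were both the count of Jak and Stat genes marked in 1 line only, which fell from 1 to 0 with a window of 5000 bp, since Stat4 was then marked in Scid.adh.2C2 at 9.06-fold, and to 0 with only the most upstream TSS, since Stat4 was then unmarked in 230-238 as well. The 270 fold and width values of the members under the alternatives were identical. The alternatives only select among deposited peaks, so a member that keeps its strongest and widest peak must keep its values. Of 34 ranks recomputed by −log10 q or covered length, 25 stayed on the same side of the middle, Jak3 in both lines among them. Stat6 in Scid.adh.2C2 moved from 81.6% to 37.9% of the marked genes by covered length, and Stat5a in 230-238 from 15.5% to 58.5%. Of 80 counts of list genes marked in 1 line only, 74 stayed within 1.5 times their value, and among the others the ligands of 230-238 fell from 4 to 2 with peaks of at least 10-fold and with equal numbers of peaks, and its inhibitors from 2 to 1 with the summit in the window. The depth of the libraries is unknown.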
